A study of Mus musculus with 16 samples.

Results

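Livers of 5-week-old mice that lack both FXR and SHP were compared with livers of wild-type mice of the same age. The comparison rests on 4 of the 16 arrays of the study, 2 titled as FXR/SHP double knockout and 2 titled as wild type, chosen by their titles alone. The study measured total liver RNA on Illumina mouse Ref-8 bead arrays, with wild-type, FXR-/-, SHP-/- and double-knockout males at 3 and 5 weeks of age and 2 arrays in each of 8 groups. The double knockout is FXR-/-,SHP-/-, bred by crossing the 2 single-knockout lines after each had been backcrossed to C57BL/6. The wild-type mice were C57BL/6 males bought from a supplier. All ate normal chow under a 12-hour light and dark cycle. The labels name no tissue-restricted allele and no agent. The labels do not say whether the duplicate arrays are separate animals, so the p-values reflect no more than how far duplicates lie apart, which may be technical.

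FXR, encoded by Nr1h4, is the nuclear receptor that binds bile acids. In liver it raises the transcription of exporters such as Abcb11 and of Nr0b2, which encodes SHP, a receptor-like protein without a DNA-binding domain that holds back other activators. Through SHP, and through the gut hormone FGF15 (known from mice), bile acids limit their own synthesis, and Cyp7a1, the rate-limiting enzyme, is the best known gene under this control. The comparison asks what a young liver expresses when both the sensor and the repressor are missing.

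On the 4 arrays 9739 to 10431 of 24613 probes were detected, that is, brighter than nearly all negative control probes (detection p under 0.01). A probe was used if it was detected on both arrays of either group, which held for 10010 probes (40.7%), and each gene was read from its brightest probe, for 7478 genes in all. Values are log2 intensities after background correction and quantile normalization, differences are double knockout minus wild type on that scale, and values after ± are standard errors with n = 2 arrays in each group. A gene rose or fell if its p-value in the limma fit, adjusted over the 7478 genes, was under 0.05. By this rule 1997 genes (26.7%) were called, of which 1140 (15.2%) rose and 857 (11.5%) fell. Without wild-type replicate 1 or 2 the number that fell was 560 or 552. At least 2-fold changes were found in 231 genes (3.09%), 158 higher (2.11%) and 73 lower (0.976%), and 48 genes changed at least 4-fold. Without adjustment 2787 genes had a p-value under 0.05. With detection required on all 4 arrays, 923 of 6689 genes rose and 786 fell. The arrays of the 2 groups did not overlap in 63.7% of genes, with the double knockout above in 32.5% and below in 31.2%, so lack of overlap between 2 and 2 arrays is common here. Of the tested genes 286 were not detected on either wild-type array and passed the probe rule through the double knockout. List counts below include such members. They numbered 3 in each list of cell cycle, perinatal, female-biased, and ER stress and ATF4 genes. In those of fatty acid oxidation and PPAR-alpha, CAR and PXR, macrophage and neutrophil, and immediate early genes they numbered 2. Lists of stellate, lymphocyte, muscle, cholangiocyte, erythroid and pancreas markers and of ribosomal proteins each held 1.

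Double-knockout replicate 2 had weak labelling controls, with a biotin control of 903 against 2958.5 to 3487.3 on the other 7 arrays of 5-week mice. Its detected probes, 10431, were not fewer than those of replicate 1, 9966. The duplicates of the double knockout differed by 1.44 standard errors of the bead means (SD over probes), those of wild type by 1.23, and arrays of different groups by 3.41 to 3.54. Of the 7478 genes, 9 differed more than 2-fold between the double-knockout duplicates and 0 between the wild-type duplicates. The widest gaps were in Trnau1ap, Pcyox1, Hcfc1, Atp5k, Fech and Nptn, each lower on replicate 2. Among them only Hcfc1, a transcriptional coregulator, passed the test (-0.90 ± 0.25, adjusted p = 0.011), with 7.05 and 5.79 in the double knockout against 7.33 and 7.32 in wild type. Without replicate 2 it no longer passed (-0.27, adjusted p = 0.274), without wild-type replicate 1 or 2 its adjusted p was 0.0576 or 0.0578, and in a fit of the 4 compared arrays alone it was 0.0539.

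The deleted genes were looked at first. Nr1h4 had log2 intensities of 10.55 and 10.60 in wild type and of 5.87 and 6.17 on the double-knockout arrays. It fell 23.4-fold (-4.55 ± 0.11, adjusted p = 2.9e-16), and the probe was still detected on both double-knockout arrays. In the 3-week double knockout the same probe was at 4.28 and 4.23 and not detected. The low signal at 5 weeks was also present in FXR-/-, at 5.92 and 5.97. The probe of Nr0b2 was not well above background on any of the 16 arrays (4.19 to 4.35, detection p 0.374 to 0.949), wild type included, so the loss of SHP cannot be checked from its own transcript.

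The promoters of Abcb11 and Cyp8b1 are shown as background. The first gene is known to be activated by FXR at an inverted repeat of the receptor half-site. The second is driven by LRH-1, the factor on which SHP acts. Whether either site bears on the values here was not tested. The sequences below are from RefSeq on GRCm38.p6, 250 bases before to 50 bases after the annotated start, written 5′ to 3′ along the gene. Both genes lie on the minus strand, Abcb11 at chr2:69342567-69342866 and Cyp8b1 at chr9:121916256-121916555. Capitals mark, in Abcb11, a match with at most 1 mismatch to the inverted repeat AGGTCANTGACCT and, in Cyp8b1, a match to the LRH-1 core CAAGGNCA, both searched on both strands.
Abcb11: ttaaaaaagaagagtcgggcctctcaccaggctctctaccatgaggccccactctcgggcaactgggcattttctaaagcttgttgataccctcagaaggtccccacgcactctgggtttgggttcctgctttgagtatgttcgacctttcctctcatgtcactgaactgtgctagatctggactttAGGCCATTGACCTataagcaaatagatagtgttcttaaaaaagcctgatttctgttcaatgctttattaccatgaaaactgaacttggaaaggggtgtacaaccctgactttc
Cyp8b1: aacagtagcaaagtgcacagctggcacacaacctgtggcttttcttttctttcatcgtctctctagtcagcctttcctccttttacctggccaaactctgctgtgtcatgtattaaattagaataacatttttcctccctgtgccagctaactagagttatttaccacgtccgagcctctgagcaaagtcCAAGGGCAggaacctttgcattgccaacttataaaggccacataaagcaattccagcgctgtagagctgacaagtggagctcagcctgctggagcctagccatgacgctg
The repeat in Abcb11 begins 63 bases before the start, and the core in Cyp8b1 begins 60 bases before it. Of 32851 promoters of the same length, 27 (0.0822%) held the repeat with at most 1 mismatch, 3 (0.00913%) held it exactly, and 2204 (6.71%) held the LRH-1 core. The promoters of Cyp2b9, Cyp2b13 and Cyp2b10, described further on, also hold this core, on the strand opposite to that in Cyp8b1. A match of letters is a description and not evidence of binding. Cyp7a1, Cyp17a1 and Sult2a2 are described without a promoter sequence, since none was in the promoter set used.

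Cyp7a1, which catalyses the limiting step of bile acid synthesis, was 8.55 and 8.72 in wild type and 11.66 and 11.65 in the double knockout. It rose 8.13-fold (3.02 ± 0.10, adjusted p = 1.1e-13). Cyp8b1, the 12-alpha-hydroxylase that directs synthesis toward cholic acid, was 12.63 and 12.61 in wild type and 13.14 and 13.40 in the double knockout, a rise of 1.57-fold (0.65 ± 0.08, adjusted p = 9.5e-06). Cyp7a1 and Cyp8b1, which act in the classic pathway, were thus higher on every double-knockout array than on every wild-type array, as were 32.5% of all genes.

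Several other genes of bile acid synthesis and conjugation were lower. Cyp7b1, the oxysterol 7-alpha-hydroxylase of the alternative pathway, was 11.38 and 11.46 in wild type and 10.33 and 10.29 in the double knockout and fell 2.16-fold (-1.11 ± 0.12, adjusted p = 9.7e-07). Cyp27a1, which starts that pathway and oxidizes the side chain, fell by 0.61 ± 0.08 (adjusted p = 1.5e-05), and Cyp39a1, which acts on 24-hydroxycholesterol, fell by 0.65 ± 0.12 (adjusted p = 0.00032). A second probe of Cyp27a1 gave -1.11. Smaller falls were seen in Scp2, the peroxisomal thiolase and sterol carrier (-0.31 ± 0.07, with -1.16 and -1.44 at its dimmer probes), in Slc27a5, which activates bile acids for conjugation (-0.24 ± 0.07), and in Cyp2c70, which makes muricholic acids in mice (-0.24 ± 0.07). The call of Scp2 ended without wild-type replicate 2 (adjusted p = 0.061), and those of Slc27a5 and Cyp2c70 ended without wild-type replicate 1 (0.0554 and 0.132), wild-type replicate 2 (0.132 and 0.0556) or double-knockout replicate 1 (0.213 and 0.197), and with the 4 compared arrays alone (0.0607 and 0.0669). The conjugating enzyme Baat was 9.16 and 9.14 in wild type and 9.13 and 8.55 in the double knockout, a difference that did not pass (-0.31 ± 0.24, adjusted p = 0.36). Of 14 measured genes of synthesis and conjugation 2 rose, 6 fell (3 without wild-type replicate 2) and 6 did not pass, with a median of -0.207 against -0.001 over all genes.

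The bile salt export pump Abcb11 was lower. Its log2 intensity was 9.75 and 9.76 in wild type and 8.56 and 8.87 in the double knockout, a fall of 2.06-fold (-1.04 ± 0.09, adjusted p = 8.5e-08). No other measured exporter of the canalicular membrane fell. Abcb4, the phospholipid floppase, was 10.70 and 10.72 in wild type and 11.04 and 11.02 in the double knockout (0.32 ± 0.07, adjusted p = 0.0029), and Abcc2, which exports bilirubin glucuronide and other conjugates, was 9.75 and 9.62 against 10.04 and 10.12 (0.40 ± 0.08, adjusted p = 0.0015, with -0.03 at a dimmer probe that did not pass). The sterol transporters Abcg5 (0.08 ± 0.09) and Abcg8 (0.23 ± 0.09) did not pass, though Abcg8 passed without wild-type replicate 2 (adjusted p = 0.0212).

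Carriers that take up bile acids and other anions from the blood were lower, with 1 exception. Slc10a1, the sodium taurocholate cotransporter, was read at a low level, 5.88 and 6.28 in wild type and 5.67 and 5.52 in the double knockout, and fell by 0.49 ± 0.14 (adjusted p = 0.017). Slco1b2, an organic anion carrier, was 9.26 and 9.07 in wild type and 8.63 and 8.19 in the double knockout and fell by 0.75 ± 0.13 (adjusted p = 0.00022). The anion carriers Slc22a7 (-0.76 ± 0.12) and Slco2b1 (-0.35 ± 0.09) fell as well, while Slco1a4, also a target of the xenobiotic receptors, rose from 6.23 and 6.22 to 7.05 and 7.06 (0.83 ± 0.15, adjusted p = 0.00043). Of 5 measured uptake genes 4 fell (2 without wild-type replicate 2) and 1 rose. The call of Slc10a1 ended without wild-type replicate 2 or double-knockout replicate 2 (adjusted p = 0.248 and 0.115), and that of Slco2b1 without wild-type replicate 2 or double-knockout replicate 1 (0.102 and 0.0621).

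Pumps that send conjugates back to the blood were higher in 2 of 3 cases. Abcc4, which exports bile acids together with glutathione, was 4.99 and 5.33 in wild type and 6.45 and 6.56 in the double knockout, a rise of 2.54-fold (1.34 ± 0.14, adjusted p = 8.5e-07). Abcc3 rose by 0.50 ± 0.10 (adjusted p = 0.0013) and Abcc6 fell by 0.62 ± 0.17 (adjusted p = 0.0089). The call of Abcc6 ended without wild-type replicate 1 or double-knockout replicate 2 (adjusted p = 0.0546 and 0.152).

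The largest change of any gene was in Sult2a2, a hydroxysteroid sulfotransferase. It was 5.44 and 5.82 in wild type and 12.47 and 12.65 in the double knockout, 121.7-fold higher (6.93 ± 0.10, adjusted p = 4.9e-19). The probe was detected on both wild-type arrays, so this fold is no bound. Sult2a8, a sulfotransferase that acts on bile acids in mice, moved the other way, from 10.54 and 10.72 to 9.78 and 9.46 (-1.01 ± 0.13, adjusted p = 1.2e-05). Members of the Sult2a family are similar in sequence, and whether their probes read each other's transcripts was not tested. Among 9 measured genes of sulfation and glucuronidation Sult1a1 also rose (0.46 ± 0.07), Ugt2b1 fell (-0.48 ± 0.11) and 5 did not pass. The call of Ugt2b1 ended without wild-type replicate 1 or double-knockout replicate 2 (adjusted p = 0.0643 and 0.0504).

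**Figure D1:**
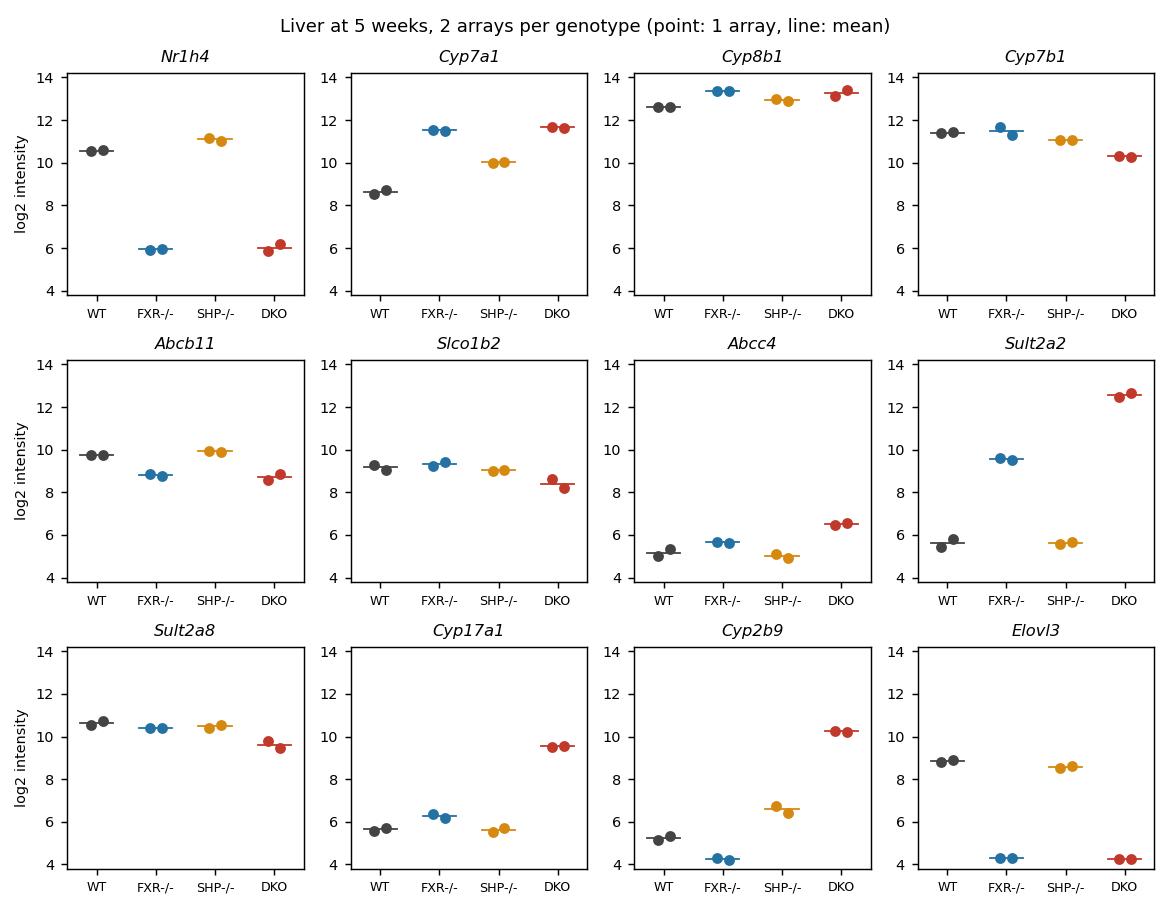
Log2 intensity of 12 genes of bile acid and steroid metabolism in livers of 5-week-old mice. Each point is 1 array, with 2 arrays for each of wild type, FXR-/-, SHP-/- and the double knockout, and the short line is the mean. Sult2a2 sits at 12.47 and 12.65 and Cyp17a1 at 9.52 and 9.55 on the double-knockout arrays, above every other array, while Abcb11 is low in both groups that lack FXR.

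Genes reported as FXR targets did not move in 1 direction. Of 18 measured, 4 rose, 5 fell and 9 did not pass, with a median of 0.014. When each array was only centred on its median, with no quantile step (median centring), 5 rose and 8 fell, and the median was -0.231. Besides Abcb11, the falls were in Osgin1, a growth inhibitor induced by oxidative stress (10.16 and 10.03 in wild type, 8.91 and 9.04 in the double knockout, -1.11 ± 0.10, adjusted p = 5.5e-08), Apoc2, the cofactor of lipoprotein lipase (8.44 and 8.57 against 7.64 and 7.63, -0.87 ± 0.12, adjusted p = 2.4e-05), Mafg, a small partner of leucine zipper factors (-0.57 ± 0.12) and Insig2, which retains the sterol sensor in the endoplasmic reticulum (-0.41 ± 0.09). Vldlr, the receptor for very low density lipoprotein, rose from 5.32 and 5.78 to 7.75 and 7.84, which is 4.75-fold (2.25 ± 0.13, adjusted p = 1.5e-10). Pdk4, an inhibitor of glucose oxidation, rose by 0.84 ± 0.11. Apoe was 13.30 and 13.29 in wild type and 13.27 and 13.28 in the double knockout (-0.02 ± 0.08, adjusted p = 0.85), and with median centring it passed at -0.34 (adjusted p = 0.00879).

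Of 22 measured nuclear receptors and coregulators 1 rose and 5 fell, Nr1h4 among them, against 15.2% and 11.5% of all genes. Pparg, the adipogenic receptor, rose from 5.93 and 5.60 to 6.70 and 6.66 (0.92 ± 0.14, adjusted p = 6.8e-05). Ppargc1a, the coactivator of fasting metabolism, fell from 7.50 and 7.55 to 6.92 and 6.92 (-0.60 ± 0.09, adjusted p = 9.2e-05). Rora, a clock-linked orphan receptor (-0.48 ± 0.08), Ppara, the fatty acid receptor (-0.46 ± 0.11), and Nr1i2, which encodes the xenobiotic receptor PXR (-0.43 ± 0.09), also fell. The remaining 16 of 22 did not pass, Hnf4a (-0.17 ± 0.08, adjusted p = 0.11), Nr5a2, which encodes LRH-1 (-0.13 ± 0.15, adjusted p = 0.56), and Nr1h3 (0.16 ± 0.07, adjusted p = 0.11) among them, of which Hnf4a passed with median centring (-0.25, adjusted p = 0.0273). Probes disagreed for Nr1h3, whose dimmer probe gave -0.44 (adjusted p = 0.0182).

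Female-biased genes of liver were higher and male-biased genes lower in the double knockout. In mice both groups follow the pattern of growth hormone secretion. Of 12 measured female-biased genes, 3 of them not detected in wild type, 11 rose and 1 did not pass (median 1.589). With detection required on all 4 arrays 8 of 9 rose (median 1.549). The array holds 20 of the listed female-biased genes. Those not measured, among them Cyp3a41a, Cyp3a44, Fmo2, Sult3a1 and Cux2, were not detected on both arrays of either group. Of 15 male-biased genes, 1 not detected in the double knockout, 9 fell and 6 did not pass (median -0.398). Cyp17a1, the steroid 17-alpha-hydroxylase, was 5.57 and 5.73 in wild type and 9.52 and 9.55 in the double knockout, a rise of 14.75-fold (3.88 ± 0.10, adjusted p = 3.2e-15). Cyp2b13 was not detected on the wild-type arrays (4.25 and 4.29) and was 9.38 and 9.40 in the double knockout, at least 22.25-fold higher (5.12 ± 0.10, adjusted p = 6.0e-17). For a gene that neither array of a group detected, such a bound takes as its level the dimmest signal that still counted as detected on those arrays. Cyp2b9 rose 31.7-fold from 5.16 and 5.34 to 10.26 and 10.21 (4.99 ± 0.10, adjusted p = 8.6e-17), and Cyp2a4, a steroid 15-alpha-hydroxylase, rose from 11.16 and 11.16 to 13.01 and 12.92 (1.80 ± 0.08, adjusted p = 2.2e-12).

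On the male side Cyp4a12b, a fatty acid hydroxylase, was 10.79 and 10.87 in wild type and 5.73 and 5.57 in the double knockout, 36.15-fold lower (-5.18 ± 0.12, adjusted p = 2.1e-16). Its near-identical paralog Cyp4a12a was 11.69 and 11.98 against 11.46 and 11.41 and fell by 0.40 ± 0.09 (adjusted p = 0.003, or 0.0916 without wild-type replicate 2), so the 2 probes gave falls of very different size, and whether each reads its own transcript alone was not tested. Elovl3, an elongase of very long fatty acids, was 8.79 and 8.88 in wild type and not detected in the double knockout (4.27 and 4.25), at least 15.97-fold lower (adjusted p = 4.9e-15). Hsd3b5, a male-specific ketosteroid reductase, fell 2.40-fold (-1.26 ± 0.12, adjusted p = 3.3e-07) and Cyp2d9, a testosterone 16-alpha-hydroxylase, fell 2.01-fold (-1.01 ± 0.09, adjusted p = 1.1e-07). The Y-linked genes Eif2s3y (0.41 ± 0.20, adjusted p = 0.13) and Kdm5d (0.26 ± 0.14, adjusted p = 0.18) were detected on all 4 arrays and did not pass. Without double-knockout replicate 2, the weakly labelled array, both passed, Eif2s3y at 0.76 (adjusted p = 0.00935) and Kdm5d at 0.45 (adjusted p = 0.0471). Among 16 genes of steroid hormone metabolism 2 rose, 4 fell and 10 did not pass, with Hsd17b2, which inactivates estradiol and testosterone, lower (-0.99 ± 0.12).

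Targets of the xenobiotic receptors CAR and PXR rose in 19 of 25 measured genes and fell in 0, with a median of 0.829, or rose in 17 of the 23 detected on all 4 arrays. Of the 25, 4 are also on the female-biased list, namely Cyp2a4, Cyp2b9, Cyp2b10 and Cyp2b13. Cyp2b10, the classic CAR target, named here after its values were seen, rose 2.93-fold (1.55 ± 0.15, adjusted p = 3.2e-07). The glutathione transferases Gsta1 (5.96 and 5.87 in wild type, 8.66 and 8.31 in the double knockout, 2.57 ± 0.15), Gsta2 (6.53 and 6.49 against 9.07 and 8.90, 2.48 ± 0.12) and Gstm3 (6.75 and 6.55 against 8.89 and 8.70, 2.15 ± 0.18) rose 4.43- to 5.92-fold. Alas1, the first enzyme of heme synthesis, also named after its values were seen, rose from 10.91 and 10.85 to 12.96 and 12.96 (2.07 ± 0.08). Cyp2c37 (0.13 ± 0.08, adjusted p = 0.24) and Cyp1a2 (-0.22 ± 0.10, adjusted p = 0.11) were the brightest members that did not pass, and Cyp1a2 passed with median centring (-0.34, adjusted p = 0.00537).

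The promoters of Cyp2b9 and Cyp2b13, shown because these 2 genes were among those that rose most, are close to identical. They lie on the plus strand of GRCm38.p6 at chr7:26173159-26173458 and chr7:26061245-26061544, from RefSeq, with the 2 bases that differ in capitals.
Cyp2b9: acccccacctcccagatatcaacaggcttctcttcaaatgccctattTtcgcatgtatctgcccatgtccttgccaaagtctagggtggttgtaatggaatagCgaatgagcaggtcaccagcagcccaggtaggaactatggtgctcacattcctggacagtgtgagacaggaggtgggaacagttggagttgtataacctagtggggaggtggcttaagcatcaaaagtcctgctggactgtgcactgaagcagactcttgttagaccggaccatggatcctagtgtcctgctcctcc
Cyp2b13: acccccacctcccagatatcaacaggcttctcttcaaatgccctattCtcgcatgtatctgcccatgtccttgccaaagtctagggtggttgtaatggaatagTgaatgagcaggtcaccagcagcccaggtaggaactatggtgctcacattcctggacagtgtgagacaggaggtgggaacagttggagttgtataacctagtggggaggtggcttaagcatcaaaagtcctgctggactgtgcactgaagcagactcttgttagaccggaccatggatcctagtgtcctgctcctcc
Of 300 bases 298 (99.3%) were identical, against 147 of 299 (49.2%) between Cyp2b9 and Cyp2b10 after a shift of 1 base and without gaps. The probes of genes this similar may read both transcripts, which was not tested, and their separate values in wild type (detected for Cyp2b9, not detected for Cyp2b13) are a description of the probes.

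**Figure D2:**
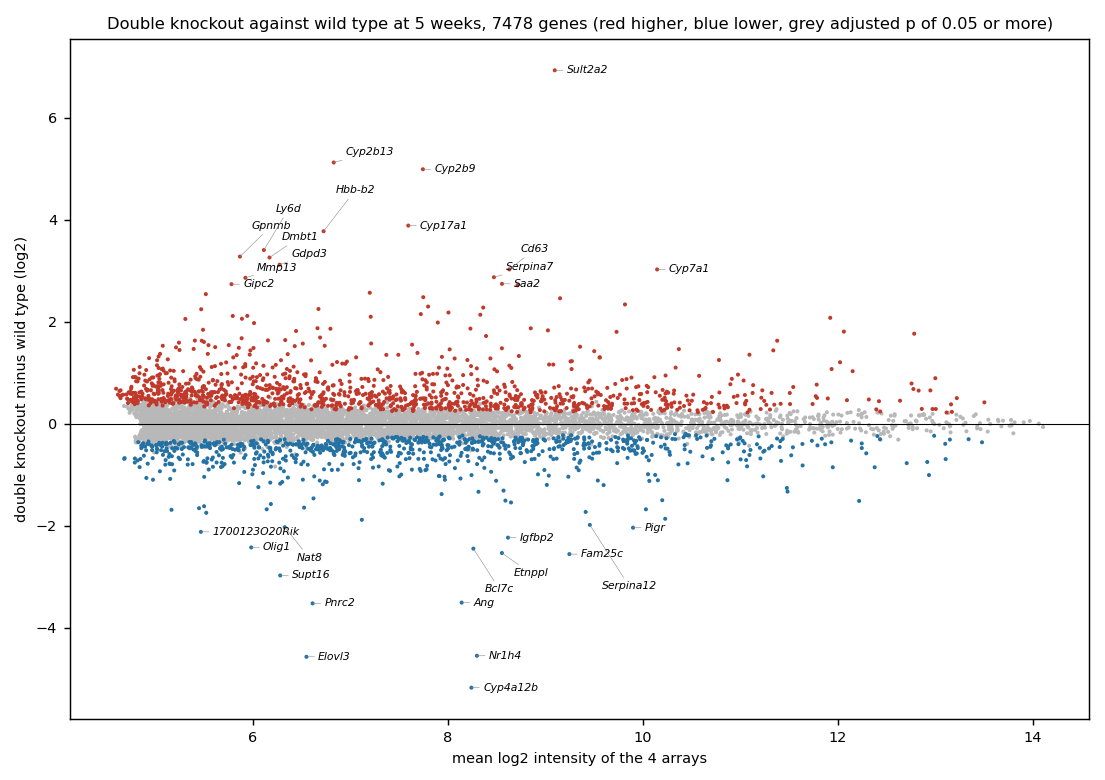
Difference between double knockout and wild type at 5 weeks (log2, y axis) against the mean log2 intensity of the 4 arrays (x axis) for 7478 genes. Coloured points passed an adjusted p of 0.05, 1140 higher and 857 lower. Their differences run from 6.93 for Sult2a2 to -5.18 for Cyp4a12b.

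Beyond these, the 15 largest rises held genes of several kinds. Gpnmb, a glycoprotein of lipid-laden macrophages, was not detected in wild type (4.23 and 4.23) and was 7.40 and 7.61 in the double knockout, at least 6.03-fold higher (3.28 ± 0.14, adjusted p = 2.0e-12), with 1.05 at a dimmer probe. Mmp13, an interstitial collagenase, went from 4.56 and 4.42, not detected, to 7.40 and 7.30, at least 5.425-fold (2.86 ± 0.17, adjusted p = 4.6e-10). Cd63, a tetraspanin of lysosomes, rose from 7.11 and 7.12 to 10.14 and 10.14 (3.02 ± 0.10, adjusted p = 1.1e-13). Ly6d (at least 7.47-fold), Dmbt1, a secreted scavenger receptor of mucosa (at least 7.39-fold), and Gipc2 (at least 4.71-fold) were not detected in wild type. Gdpd3, a glycerophosphodiesterase, rose by 3.12 ± 0.17 and Serpina7, the thyroxine-binding globulin, by 2.87 ± 0.11.

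Among the largest falls were several secreted or metabolic proteins of the hepatocyte. Igfbp2, a carrier of insulin-like growth factors, fell 4.71-fold from 9.68 and 9.78 to 7.46 and 7.53 (-2.23 ± 0.10, adjusted p = 3.6e-12). Pigr, which carries immunoglobulin A into bile, fell 4.11-fold from 10.84 and 10.998 to 8.98 and 8.77 (-2.04 ± 0.09, adjusted p = 6.9e-12). Etnppl, an ethanolamine-phosphate lyase, fell by 2.54 ± 0.10, Nat8, an acetyltransferase, by 2.03 ± 0.17, and the adipokine Serpina12 fell by 1.99 ± 0.09 (-0.35 at a dimmer probe, which did not pass). Bcl7c (-2.45 ± 0.11) and Olig1, at least 5.13-fold lower, complete the list beside genes of chromosomes 4 and 14 that are described further on.

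Genes of lipid synthesis and of lipid oxidation both held more rises than falls. Of 18 measured genes of fatty acid and triglyceride synthesis 8 rose, 0 fell and 10 did not pass (median 0.186). Pnpla3, a lipid droplet protein induced by feeding, rose from 4.92 and 4.79 to 6.84 and 6.99 (2.06 ± 0.13, adjusted p = 6.1e-10), and Elovl6, the elongase of palmitate, from 7.95 and 8.17 to 9.41 and 9.37 (1.33 ± 0.10, adjusted p = 8.6e-09). Thrsp rose by 0.73 ± 0.12, while Scd1, at 13.09 and 13.11 against 13.34 and 12.91, did not pass (adjusted p = 0.90). Of 18 genes of cholesterol synthesis and uptake 6 rose, 1 fell and 11 did not pass (median 0.183), led by Msmo1 (0.85 ± 0.11), Sqle (0.81 ± 0.11), Hmgcs1 (0.68 ± 0.07) and Fdps (0.54 ± 0.07), all enzymes between acetyl-CoA and cholesterol.

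Of 19 genes of fatty acid oxidation and PPAR-alpha targets 10 rose, 2 fell and 7 did not pass (median 0.397). Cyp4a14, an omega-hydroxylase, rose from 9.66 and 9.61 to 11.12 and 11.08 (1.46 ± 0.08, adjusted p = 4.7e-11), Acot3, a peroxisomal thioesterase, was at least 2.47-fold higher, and Crat, carnitine acetyltransferase, rose by 1.04 ± 0.17. The hepatokine Fgf21 was not detected in wild type (4.33 and 4.33) and was 5.26 and 5.23 in the double knockout, at least 1.26-fold higher (adjusted p = 4.9e-05). Of the 19 genes, 4 are also female-biased. Of 22 lipoprotein genes 2 rose and 4 fell (10 with median centring), with Apoa4 higher (1.98 ± 0.12) and Apoa5 (-0.69 ± 0.15) and Angptl4, an inhibitor of lipoprotein lipase (-0.65 ± 0.08), lower.

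Acute phase genes rose in 12 of 27 measured members, fell in 1 and did not pass in 14 (median 0.218). With median centring 10 rose and 5 fell, and the median turned to -0.018. Saa2, serum amyloid A, was 7.33 and 7.04 in wild type and 9.83 and 10.02 in the double knockout, 6.68-fold higher (2.74 ± 0.12, adjusted p = 2.0e-12). Lcn2, an iron-binding lipocalin, rose from 8.65 and 8.65 to 10.97 and 10.99 (2.34 ± 0.08, adjusted p = 1.1e-13). The metallothioneins Mt2 (7.21 and 7.24 against 9.47 and 9.53, 2.28 ± 0.09) and Mt1 (11.84 and 11.96 against 13.64 and 13.68, 1.76 ± 0.07) and the glycoprotein Orm2 (1.63 ± 0.09) followed.

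Of 16 NRF2 targets 9 rose, 1 fell and 6 did not pass (median 0.457). Besides Gsta1 and Gstm3, which are also on the CAR and PXR list, Srxn1, sulfiredoxin, rose by 1.09 ± 0.09 and Hmox1, heme oxygenase, by 0.94 ± 0.09.

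Some markers of cells other than hepatocytes rose. Of 18 macrophage and neutrophil markers 11 rose, 0 fell and 7 did not pass (median 0.488), or 7 of the 13 that were detected on all 4 arrays (median 0.322), and their mean log2 intensity was 6.65 and 6.64 in wild type and 7.52 and 7.44 in the double knockout. S100a8, a neutrophil calcium binder, rose from 6.29 and 6.03 to 8.32 and 8.19 (2.10 ± 0.12), the chemokine Cxcl1 by 1.87 ± 0.12, Lgals3, galectin-3, by 1.28 ± 0.10, and Cd14, not detected in wild type, was at least 2.64-fold higher. Lyz2 (0.18 ± 0.11) and the Kupffer cell lectin Clec4f (0.23 ± 0.11) did not pass, and Ccr2, Itgam, Mpo and Ngp were not detected on both arrays of either group. Of 7 lymphocyte markers 4 rose, among them the class II genes H2-Eb1 (1.01 ± 0.14) and H2-Ab1 (0.95 ± 0.10), while Cd3e, Cd4 and Cd79a were not detected on both arrays of either group.

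Of 21 markers of stellate cells and matrix 12 rose, 1 fell and 8 did not pass (median 0.346), or 7 rose without wild-type replicate 1, wild-type replicate 2 or double-knockout replicate 2, with means of 6.79 and 6.83 in wild type and 7.16 and 7.14 in the double knockout. Timp1, a collagenase inhibitor, rose from 4.94 and 5.31 to 6.29 and 6.37 (1.20 ± 0.13, adjusted p = 1.8e-06), and Pdgfra (0.69 ± 0.14), Col1a1 (0.66 ± 0.15) and Loxl1, a collagen cross-linking oxidase (0.62 ± 0.13), rose as well. Col3a1 was 5.76 and 5.70 in wild type and 6.86 and 5.99 in the double knockout (0.69 ± 0.22, adjusted p = 0.028), so its size depends on the double-knockout array. Its call ended without double-knockout replicate 1 (adjusted p = 0.444) and without wild-type replicate 1 or 2 (0.0894 and 0.121). Of 7 measured cholangiocyte markers 2 rose, 1 fell and 4 did not pass, and Krt19, Epcam and Cftr were not detected on both arrays of either group. Of 19 endothelial markers 2 fell, Flt1 (-0.46 ± 0.10) and Eng (-0.36 ± 0.11), and 17 did not pass. The call of Eng ended without wild-type replicate 1 (adjusted p = 0.119) and without double-knockout replicate 1 or 2 (0.0545 and 0.0688). Of 16 hepatocyte markers 4 fell and 12 did not pass, with means of 11.83 and 11.81 in wild type and 11.66 and 11.55 in the double knockout. With median centring 13 of the 16 fell (median -0.34 against -0.098), 2 fell without either wild-type array, and 1 fell without double-knockout replicate 2. In whole liver, more cells of a type and more RNA of these genes per cell cannot be told apart.

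Markers of tissues near the liver moved with the groups too. Skeletal muscle markers rose in 18 of 20 members (median 0.625, range 0.34 to 0.95 among those that passed), with means of 7.61 and 7.53 in wild type and 8.15 and 8.17 in the double knockout, and the largest rises were in Ckmt2 (0.95 ± 0.11) and Mb, myoglobin (0.85 ± 0.13). The mean over the muscle markers was 4.75 and 4.71 in FXR-/- and 8.36 and 8.34 in SHP-/-. Of 6 measured exocrine pancreas markers 2 rose and 1 fell, and their mean was 6.88 and 6.87 in wild type and 7.02 and 7.02 in the double knockout, with Prss1, Cpa1 and Ctrb1 not detected on both arrays of either group. Tff2, a gastric peptide, rose by 0.67 ± 0.14. The part of these tissues in any other difference was not tested. Of 9 erythroid markers 2 rose and 3 fell, or 1 fell without wild-type replicate 1 or double-knockout replicate 2. Hbb-b2, a beta-globin, was not detected in wild type (4.84 and 4.83) and was 8.68 and 8.55 in the double knockout, at least 12.98-fold higher, while Hbb-bt, another beta-globin, fell from 7.33 and 7.38 to 6.10 and 5.67 (-1.47 ± 0.14) and the alpha-globin Hba-a1 was 12.86 and 12.71 against 12.92 and 12.74 (0.04 ± 0.08). Hbb-bt belongs to the beta-globin haplotype of C57BL/6, and Hbb-b2 to the other common haplotype of laboratory mice. Which haplotype the animals carry was not tested.

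**Figure D3:**
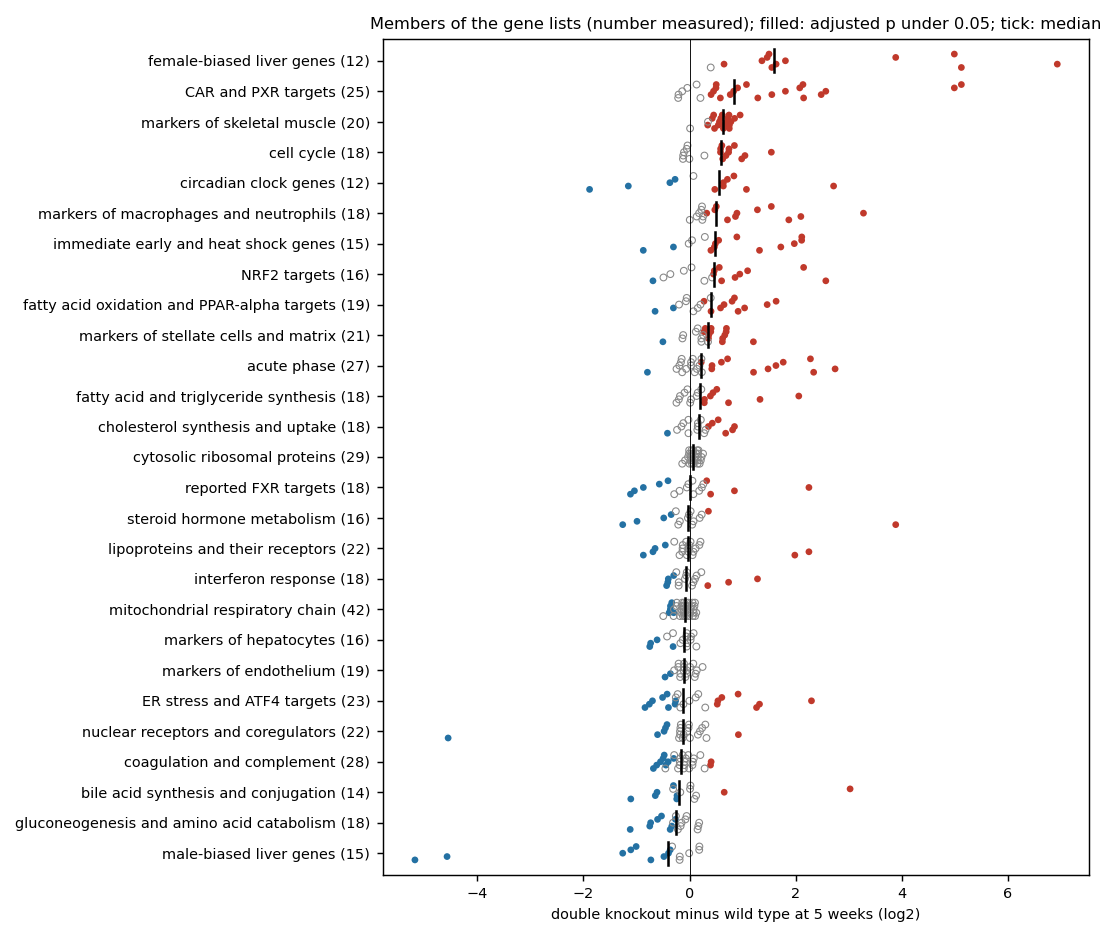
Differences between double knockout and wild type at 5 weeks (log2, x axis) for the measured members of the 27 gene lists with at least 12 of them (y axis). Each point is 1 gene, filled where it passed an adjusted p of 0.05, and the vertical tick is the list's median. Female-biased genes and CAR and PXR targets lie mostly to the right, at medians of 1.589 and 0.829, and male-biased genes to the left, at -0.398.

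Cell cycle genes rose in 11 of 18 members, fell in 0 and did not pass in 7 (median 0.595). Of the 18, 3 were not detected in wild type. The array holds 29 of the listed cell cycle genes. Those not measured, among them Ccna2, Ccnb2, Aurkb, Bub1, Top2a and Foxm1, were not detected on both arrays of either group. With detection required on all 4 arrays 7 of 14 rose (median 0.43), and the authors' deposited log2 values gave a median of 0.271 over the 18. Prc1, which bundles spindle microtubules, was 5.31 and 4.65 in wild type and 6.50 and 6.54 in the double knockout (1.54 ± 0.18), Cdc20 was at least 1.69-fold higher (0.30 at a dimmer probe, which did not pass), and Mcm6, a replication helicase subunit, rose by 0.98 ± 0.17. Cdkn1a, the inhibitor p21, was 7.60 and 7.77 against 7.99 and 7.94 and did not pass (0.28 ± 0.12, adjusted p = 0.097), but passed with the authors' deposited log2 values (0.22, adjusted p = 0.0404).

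Immediate early and heat shock genes rose in 10 of 15 members and fell in 2 (median 0.485), or rose in 6 of the 11 detected on all 4 arrays. Fos was not detected in wild type (4.89 and 4.88) and was 7.08 and 6.92 in the double knockout, at least 4.24-fold higher (2.11 ± 0.14, adjusted p = 1.6e-09). Jun rose by 1.97 ± 0.14, Ier3 by 2.11 ± 0.13 and Klf6 by 1.72 ± 0.08. Genes of the circadian clock moved in both directions, with 7 rises, 4 falls (2 without wild-type replicate 2 or double-knockout replicate 2) and 1 that did not pass of 12. Dbp, a clock output factor, was 7.27 and 7.44 in wild type and 10.03 and 10.11 in the double knockout (2.71 ± 0.11, adjusted p = 1.9e-12), Per2 rose by 0.83 ± 0.12 and Bhlhe40 by 1.07 ± 0.14, while Nr1d2 (-1.89 ± 0.12) and Arntl, the clock activator BMAL1 (-1.16 ± 0.13), fell. The labels give no hour of death, and the part of the hour or of handling was not tested.

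Of 23 genes of ER stress and ATF4 7 rose, 8 fell and 8 did not pass, and 4 of the 20 detected on all 4 arrays rose. Among the rises, Asns, asparagine synthetase, went from 6.60 and 6.70 to 8.90 and 8.98 (2.30 ± 0.12, adjusted p = 4.7e-11, with 0.50 at a dimmer probe), and Atf3 was at least 1.71-fold and Psat1, of serine synthesis, at least 1.795-fold higher, while the chaperone Sdf2l1 fell by 0.84 ± 0.13. Genes of gluconeogenesis and amino acid catabolism fell in 8 of 18 members (5 without wild-type replicate 2), rose in 0 and did not pass in 10 (median -0.264), with Pck1, the entry enzyme of gluconeogenesis, at 8.98 and 9.12 against 8.08 and 7.79 (-1.12 ± 0.15, adjusted p = 1.3e-05) and the urea cycle enzyme Ass1 at -0.75 ± 0.07. Of 28 genes of coagulation and complement 2 rose, 8 fell and 18 did not pass, with C8b (-0.68 ± 0.08) and C9 (-0.62 ± 0.11), of the membrane attack complex, lowest. Of 18 interferon genes 3 rose and 4 fell (2 without wild-type replicate 2 or either double-knockout array), with the chemokine Cxcl9 higher by 1.28 ± 0.09. Of 11 perinatal genes, 3 not detected in wild type, 4 rose and 1 fell, and Igf1 fell by 0.55 ± 0.10. Of 5 adipose markers 2 rose and 1 fell, and of 4 stomach and gut markers 2 rose. None of 29 cytosolic ribosomal protein genes passed (median 0.071, or -0.066 with median centring), and of 42 respiratory chain genes 5 fell and 37 did not pass (median -0.09). Without double-knockout replicate 2, the weakly labelled array, 0 of the 42 fell, and with median centring 10 fell.

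The double knockout was then set against each single knockout of the same age, to ask where the loss of both differs from the loss of 1. In the FXR-/- arrays the Y-linked gene Eif2s3y, at 6.997 to 7.93 on the 4 arrays of wild type and double knockout, was 4.33 and 4.34 and not detected, although all mice are labelled male. Of the 2 measured Y-linked genes Eif2s3y was the 1 that fell in FXR-/- against wild type, and Kdm5d was not called there. Whether the missing signal of Eif2s3y bears on any difference from FXR-/- was not tested. Against FXR-/- 1538 genes (20.6%) were called, 893 higher (11.9%) and 645 lower (8.63%), and against SHP-/- 1733 genes (23.2%), 1014 higher (13.6%) and 719 lower (9.61%). The count against SHP-/- was 1114 without SHP-/- replicate 1. For reference, FXR-/- against wild type gave calls in 17.8% of genes (9.01% higher, 8.8% lower), and SHP-/- against wild type in 9.15% (4.85% higher, 4.29% lower). The same 2 double-knockout arrays enter all 3 of its comparisons, so values are given side by side and no overlap is counted.

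Cyp7a1 did not differ detectably from FXR-/- (0.14 ± 0.10) and was higher than in SHP-/- (1.64 ± 0.10). Cyp8b1 was likewise at -0.08 ± 0.08 against FXR-/- and rose by 0.33 ± 0.08 against SHP-/-, and Abcb11 was at -0.09 ± 0.09 and -1.22 ± 0.09. These 3 genes were called against SHP-/- and not against FXR-/-. With median centring Cyp8b1 was instead called against FXR-/- (-0.38, adjusted p = 0.00189) and not against SHP-/- (adjusted p = 0.122), and its call against SHP-/- ended without double-knockout replicate 2 (0.144). Elovl3 was not detected in FXR-/- or the double knockout, and was at least 13.3-fold lower in the double knockout than in SHP-/-.

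Other genes differed from both single knockouts. Cyp17a1 was 3.25 ± 0.10 above FXR-/- and 3.91 ± 0.10 above SHP-/-, Cyp2b13, not detected in either, was at least 22-fold and 23.5-fold higher, and Sult2a2 was 2.98 ± 0.10 and 6.94 ± 0.10 above them. In FXR-/- alone Sult2a2 was 3.94 ± 0.10 above wild type, and in SHP-/- it was at -0.01 ± 0.10. Cyp2b9 was at least 39.6-fold higher than in FXR-/-, where it was not detected, and 3.65 ± 0.10 above SHP-/-, where it was above wild type (1.33 ± 0.10). Cyp7b1 (-1.17 ± 0.12 and -0.77 ± 0.12), Slc10a1 (-0.78 ± 0.14 and -0.54 ± 0.14) and Slco1b2 (-0.92 ± 0.13 and -0.62 ± 0.13) were below both. Abcc4 was above both (0.86 ± 0.14 and 1.48 ± 0.14), as was Alas1 (1.41 ± 0.08 and 1.78 ± 0.08). Gpnmb was 2.20 ± 0.14 above FXR-/- and at least 6.37-fold above SHP-/-, where it was not detected, and Fos was 1.996 ± 0.14 above FXR-/- and at least 4.48-fold above SHP-/-. All of these passed the test in both comparisons, and the call of Slc10a1 against SHP-/- ended without double-knockout replicate 2 (-0.47, adjusted p = 0.0858).

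For some genes the single loss of FXR gave a larger value than the double loss. Saa2 was at -1.21 ± 0.12 in the double knockout against FXR-/-, Cxcl1 was at -0.63 ± 0.12 and Apoc2 rose by 1.84 ± 0.12 against it, with Apoc2 at -2.71 ± 0.12 in FXR-/- against wild type. The largest falls against FXR-/- were in Cyp2c39 (-4.59 ± 0.10), a retinoic acid hydroxylase in mice, and Abhd1 (-3.89 ± 0.13), and Cyp2c39 was high in FXR-/- (5.06 ± 0.10 above wild type) and 0.47 ± 0.10 above wild type in the double knockout (adjusted p = 0.0648 with the authors' deposited log2 values). The largest rises against FXR-/- were, beside Cyp2b9 and Cyp2b13, the muscle genes Acta1 (5.98 ± 0.09), Atp2a1 (at least 51.3-fold), Tnni2 (at least 44.6-fold) and Fabp3 (at least 30.85-fold). All 20 muscle markers were higher than in FXR-/-, which was the low group. Against SHP-/- the falls in Cela2a (-4.54 ± 0.11) and Pnliprp1 (-3.53 ± 0.19) came with all 6 pancreas markers lower in the double knockout, whose mean was 9.36 and 9.39 in SHP-/-. Cyp2c55 (3.68 ± 0.13) and Gsta2 (3.38 ± 0.12) were among the largest rises against SHP-/-.

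By list, CAR and PXR targets rose in 12 of 25 members and fell in 4 against FXR-/- and rose in 22 against SHP-/-. Female-biased genes rose in 10 and in 12 of 12. Fatty acid synthesis genes rose in 0 and fell in 6 of 18 against FXR-/- and rose in 6 and fell in 1 against SHP-/-. Cholesterol synthesis genes fell in 8 of 18 and rose in 1 against FXR-/-, and fell in 5 and rose in 0 against SHP-/-. Macrophage and neutrophil markers rose in 10 of 18 and in 7 of 18, with 1 and 0 falls.

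The same genotypes at 3 weeks, on a separate slide with their own wild type, show how the differences compare between ages. Replicate 2 of the 3-week double knockout also had a weak biotin control. It was 1850.6, against 2834.2 to 3249.5 on the other arrays of 3-week mice. Between the duplicates of the 3-week double knockout 27 genes differed at least 2-fold. At 3 weeks 1942 genes (26%) were called among the 7478, which were selected at 5 weeks, with 1049 higher (14%) and 893 lower (11.9%). Of the 1140 genes that rose at 5 weeks 528 (46.3%) also rose at 3 weeks, or 50.3% of the 1049 that rose there, and of the 857 that fell 356 (41.5%) also fell, or 39.9% of 893. A further 102 genes were called in opposite directions. The difference between the 2 effects was tested directly and 946 genes (12.7%) were called, 503 with the higher value at 5 weeks (6.73%) and 443 with the lower (5.92%). This count was 629 without 5-week wild-type replicate 2, 626 without 3-week wild-type replicate 2 and 1647 without replicate 1 of the 3-week double knockout. Age and slide coincide, so they cannot be told apart.

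Cyp17a1 was 3.49 ± 0.10 above wild type at 3 weeks and 3.88 ± 0.10 at 5 weeks, and the age difference did not pass (0.39 ± 0.15, adjusted p = 0.096). Abcb11 had nearly the same fall at both ages (-1.06 ± 0.09 at 3 weeks). Cyp7a1 was raised by 1.74 ± 0.10 at 3 weeks and by 3.02 at 5 weeks, an age difference of 1.28 ± 0.15 (adjusted p = 5.3e-06). Sult2a2 was raised by 2.03 ± 0.10 at 3 weeks, an age difference of 4.90 ± 0.14. The male-biased genes Cyp4a12a, at least 26.97-fold lower at 3 weeks, and Hsd3b5 (-4.94 ± 0.12 at 3 weeks) had age differences of 4.71 ± 0.13 and 3.68 ± 0.17, so their falls were smaller at 5 weeks. Wide age differences were also found in markers of other tissues, Tff2 (7.75 ± 0.20), Dmbt1 (6.06 ± 0.19), Acta1 (-5.90 ± 0.13), Atp2a1 (-4.86 ± 0.13), Tnni2 (-4.61 ± 0.18) and Pvalb (-4.22 ± 0.14). Atp2a1, Tnni2 and Pvalb were not detected in 3-week wild type and Dmbt1 in neither 3-week double knockout nor 5-week wild type, so these 4 values depend on the background correction. At 3 weeks the muscle mean was 4.61 and 4.65 in wild type and 7.59 and 7.66 in the double knockout, so the gap between groups that was 0.625 in median at 5 weeks was 2.928 at 3 weeks.

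**Figure D4:**
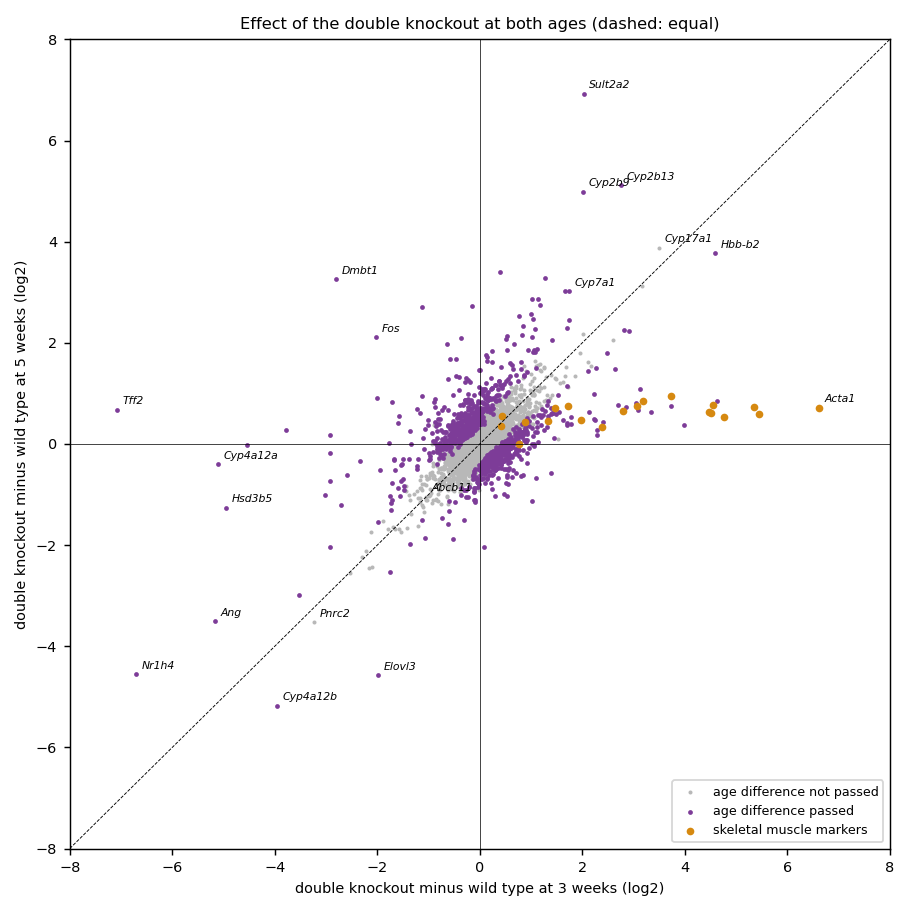
Difference between double knockout and wild type at 3 weeks (log2, x axis) and at 5 weeks (log2, y axis) for 7478 genes. Each point is 1 gene, coloured where the age difference passed an adjusted p of 0.05 (946 genes), with muscle markers in a separate colour. Muscle markers lie far to the right, and Tff2, at -7.07 at 3 weeks, far to the left.

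The order of genes along the chromosomes was looked at after the values had been seen, since knockout and control mice were of separate descent. On chromosome 14, 5 of 262 tested genes (1.91%) were at least 2-fold higher, against 2.11% of all genes. A further 10 (3.82%) were at least 2-fold lower, against 0.976% of all genes. They are Ang, angiogenin (9.86 and 9.93 in wild type, 6.36 and 6.42 in the double knockout, -3.51 ± 0.12), Supt16, a histone chaperone subunit, at least 7.63-fold lower (-0.40 at a second probe, which did not pass), Fam25c (10.52 and 10.53 against 7.93 and 8.01, -2.56 ± 0.10), 1700123O20Rik, at least 3.23-fold lower, Gdf2, the hepatic ligand BMP9, at least 2.25-fold lower, Lrit1, at least 2.77-fold lower, Psmb5, a proteasome subunit (-1.55 ± 0.09), Ndrg2 (-1.52 ± 0.16), Tmem260 (-1.17 ± 0.15) and, far from the others in gene order, the clock gene Nr1d2. In FXR-/- against wild type Nr1d2 was at -0.21 and did not pass. Of the other 9 genes, the 5 that were detected there were at -0.94 (Tmem260) to -3.36 (Ang), and the remaining 4, Supt16, 1700123O20Rik, Gdf2 and Lrit1, were not detected, at least 2.11-fold (Gdf2) to 7.15-fold (Supt16) lower. In SHP-/- the same 5 were at -0.50 (Fam25c) to 0.66 (Ang), and Nr1d2 was at -0.55. Nr1h4 itself is on chromosome 10. Of the 20 tested genes nearest to it 5 were called, 2 higher and 3 lower, against 26.7%, 15.2% and 11.5% of all genes. Amdhd1, named after its values were seen, was the 1 at least 2-fold lower (-1.50 ± 0.08), and 0 were at least 2-fold higher. Amdhd1 was at -1.71 in FXR-/- and at -0.17 in SHP-/-, where it did not pass.

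Around Nr0b2 on chromosome 4, 9 of the 20 nearest tested genes were called, 2 higher and 7 lower. Over all genes 26.7% were called, 15.2% higher and 11.5% lower, with 28.4% called on chromosome 4. Xkr8, a lipid scramblase, was 6.47 and 6.08 in wild type and not detected in the double knockout, at least 2.71-fold lower, Gpn2 fell by 0.93 ± 0.11, Cep85 by 0.57 ± 0.12 and Cd52 was at least 1.52-fold lower, while Extl1 was at least 2.61-fold higher. Arid1a fell by 0.57 ± 0.14, Nudc by 0.62 ± 0.21 and Pafah2 by 0.42 ± 0.10, and Fam76a rose by 0.49 ± 0.125. In SHP-/- against wild type Arid1a (-0.06), Nudc (-0.22) and Fam76a (0.03) did not pass, and Pafah2 fell by 0.53. Arid1a was called lower in FXR-/- (-0.81). On the same chromosome Pnrc2, a nuclear receptor coactivator, was 8.33 and 8.41 in wild type and 4.80 and 4.90 in the double knockout (-3.52 ± 0.15, adjusted p = 2.8e-12), Eya3 fell by 1.68 ± 0.13 (-0.09 at a second probe, which did not pass) and Bsdc1 by 1.38 ± 0.11. In SHP-/- against wild type Pnrc2 was at -3.05 ± 0.15, Eya3 at -1.92 ± 0.13, Bsdc1 at -1.49 ± 0.11 and Xkr8, detected on 1 of the 2 arrays, at -1.55 ± 0.15, and Extl1 was at least 2.64-fold higher. In FXR-/- against wild type Pnrc2 was at -0.37, Eya3 at -0.34, Bsdc1 at 0.01 and Xkr8 at -0.20, of which none passed the limma test (adjusted p from 0.0949 to 0.964). Pnrc2 passed there under 4 other settings (-0.31 to -0.37, adjusted p = 0.007 to 0.0346), among them the authors' deposited values, and Eya3 under 2 (-0.22 and -0.26, adjusted p = 0.033 and 0.0433). Extl1 was called higher in FXR-/- too, at least 1.21-fold (adjusted p = 0.0224), and Cep85 was called higher there (0.53, adjusted p = 0.00294) and lower in the double knockout. In FXR-/- the call of Extl1 ended under 5 other settings (adjusted p = 0.0603 to 0.145), among them without either wild-type array, and that of Cep85 without wild-type replicate 2 (0.0762). At 3 weeks the double knockout had Pnrc2 at -3.23 ± 0.15 and Ang at -5.16 ± 0.12. Whether the animals carry other alleles in these regions was not tested.

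**Figure D5:**
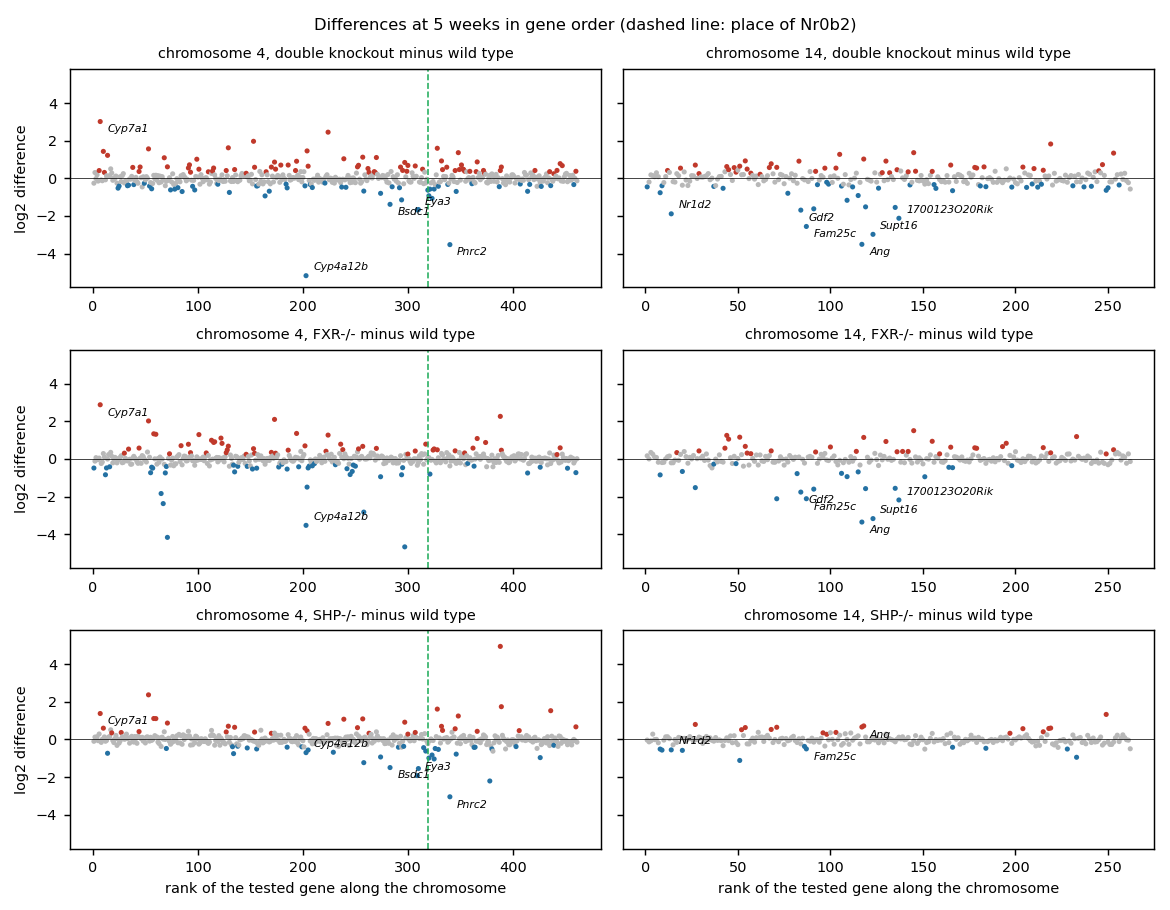
Difference from wild type at 5 weeks (log2, y axis) for tested genes in their order along chromosomes 4 and 14 (x axis, rank, no distances) in the double knockout, FXR-/- and SHP-/-. Each point is 1 gene, and the line in the chromosome 4 panels marks the place of Nr0b2. The low genes of chromosome 14, apart from Nr1d2, appear in the double knockout and FXR-/-, and the falls of Pnrc2, Eya3 and Bsdc1 of chromosome 4 in the double knockout and SHP-/-.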

How the data were processed

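Liver RNA of 16 arrays in 8 groups of 2 was measured on Illumina mouse Ref-8 bead arrays. Per the file headers the authors exported mean bead intensity, its bead standard error (used only to compare arrays) and a detection p-value for each probe from BeadStudio (BSGX Version 3.2.3) without normalization. They also deposited log2 values with equal distributions on every array (median 6.22), which correlated with log2 of the same arrays' signals at 0.9887 to 0.9953. Their scale was read from this comparison, and their background step is not given in the sources used here. Bead numbers in that table were not used. Arrays were matched to groups by title, and the 16 arrays span 2 slides, 1 for each age.

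Intensities were background-corrected from the detection p-values, quantile normalized and logged with an offset of 16 (neqc, limma 3.58.1, R 4.3.3). The probe rule and the gene rule are given with the counts. Of 24613 probes 20984 had 1 symbol in the platform annotation, 1 had several and 3628 had none. Of the 10010 kept probes 1124 had none, and for 8 of the 1161 genes with several kept probes these were called in both directions. One linear model over all 16 arrays with 1 mean for each group, moderated with a mean-variance trend (8 residual degrees of freedom, 17.8 in all), gave every difference, and p-values were adjusted by Benjamini-Hochberg. A fold change is 2 to the power of a difference. The double knockout against each single knockout, against wild type at 3 weeks, and the difference between ages are contrasts of the same fit. In simulated data for the comparison at 5 weeks, 51 of 100 genes changed by 0.5 and 95 of 100 changed by 1 (log2) were called, with 5 unchanged genes called among 7478. The simulated noise was independent between arrays and had the spread of the duplicates. Far fewer genes were changed in it than the 26.7% called in the data. It therefore checks the code and does not give the recovery or the error rate of this comparison.

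Named genes are the knocked-out pair, the 15 largest rises and 15 largest falls whose arrays did not overlap, up to 5 called members of each of 39 gene lists and its 2 brightest uncalled ones, any bile acid, nuclear receptor or FXR target gene, the 6 largest rises and falls against each single knockout, the 4 largest each way in the age difference, and the 6 genes with the widest gap between double-knockout arrays. The comparison and the lists were chosen with earlier results of these data known. Exceptions to the naming rule are stated with the gene, and members of chromosomes 4 and 14 were named after their values were seen. Alternatives varied the arrays, values, background, normalization, filter, probes, weights, variance model, block and threshold. Promoters and gene order are from RefSeq on GRCm38.p6, and the array's own build is not given in the sources used here.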

Additional observations from a re-analysis of the deposited data

Results flagged for a closer look

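What drew attention in each case was that the effect of the double knockout differed between 5 and 3 weeks in a direct test of the difference (limma, adjusted over the 7478 genes). This held for 946 genes, 97 of which are named in the text. Of the 97, 54 were called in the same direction at both ages, 14 in opposite directions, 23 at 5 weeks alone and 6 at 3 weeks alone. Values below are the effect at 5 weeks minus the effect at 3 weeks on the log2 scale, and the highest adjusted p among them was 0.0497 (Pdk4). For 25 of the 97 at least 1 of the 4 groups was not detected on either array, so the size of those values depends on the background correction. Each age lies on its own slide, and age and slide cannot be told apart.

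Among genes of bile acid metabolism the rise of Cyp7a1 was larger at 5 weeks (1.28) and that of Cyp8b1 smaller (-0.62). Cyp7b1 (-1.02) and Cyp39a1 (-0.56) fell at 5 weeks and had differences of -0.09 and -0.08 at 3 weeks. Among transporters Abcc3 (-0.84) rose at both ages and more at 3 weeks, Abcg8 (-0.85) rose at 3 weeks alone, and Abcc6 (-0.80) fell at 5 weeks alone. The rise of Sult2a2 grew by 4.90. Among reported FXR targets and nuclear receptors the values were -0.56 for Vldlr, -0.49 for Pdk4, 0.59 for Osgin1, -0.50 for Insig2, -1.13 for Ppargc1a, -0.74 for Ppara, -0.64 for Nr1i2, -0.62 for Hnf4a, -0.55 for Rora and 0.80 for Pparg. The probe of Nr1h4 itself had 2.15, and it was not detected in the 3-week double knockout and was detected at 5 weeks.

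Several female-biased and xenobiotic genes rose more at 5 weeks, while Cyp1a2 (-0.49) rose at 3 weeks alone. The values were 2.97 for Cyp2b9, 2.36 for Cyp2b13, 1.57 for Alas1, 1.57 for Gsta1, 1.43 for Gsta2 and 1.33 for Gstm3, with 0.98 for the NRF2 target Srxn1. Male-biased genes were split. The falls of Cyp4a12a (4.71), Hsd3b5 (3.68) and Cyp2d9 (2.02) were smaller at 5 weeks. Cyp4a12b had -1.22 and Elovl3 had -2.58, but Cyp4a12b was not detected in the 3-week double knockout and Elovl3 at neither age, so which age had the larger fall cannot be read from them. Cyp2c39 (-1.79) rose at both ages and more at 3 weeks. The Y-linked gene Kdm5d (0.73) was not detected in the 3-week double knockout.

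Several genes of stress, inflammation and the clock were called in opposite directions, lower at 3 weeks and higher at 5 weeks. They were Fos (4.14), Dbp (3.84), Fgf21 (2.91), Jun (2.60), S100a8 (2.45), Lgals3 (1.90), Atf3 (1.72), Thrsp (1.61) and Bhlhe40 (1.47). Atf3 was not detected in either 3-week group, so its direction at 3 weeks cannot be read. Pck1 (-2.14) and Angptl4 (-1.17), like Ppargc1a, went the other way, higher at 3 weeks and lower at 5 weeks. Other genes of these groups had 1.58 for Klf6, 1.09 for Ier3, 0.79 for Per2, -1.06 for Arntl, -1.37 for Nr1d2, 1.65 for Mt1, 1.21 for Mt2, 1.57 for Saa2, 1.49 for Lcn2, 0.82 for Orm2, 0.81 for Cxcl1, 1.97 for C9, 0.82 for C8b, 0.59 for Asns, 1.48 for Psat1 and -0.63 for Sdf2l1. Cdkn1a (-2.01) rose at 3 weeks alone.

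Lipid genes had 1.06 for Msmo1, 0.95 for Sqle, 0.69 for Hmgcs1, 1.48 for Cyp4a14, 1.31 for Apoa4 and 0.64 for Pnpla3. Markers of other cells had 2.0 for Gpnmb, 1.72 for Mmp13, 0.61 for Timp1, 0.63 for H2-Ab1, 0.60 for Lyz2, -0.59 for Flt1 and -0.52 for Eng. Markers of other tissues had 7.75 for Tff2, 6.06 for Dmbt1, -5.90 for Acta1, -4.86 for Atp2a1, -4.61 for Tnni2, -4.22 for Pvalb, -2.77 for Ckmt2 and -2.34 for Mb, with -0.82 for Hbb-b2 and -0.73 for Hbb-bt. The remaining genes had 3.01 for Ly6d, 2.88 for Gipc2, 1.85 for Serpina7, 1.35 for Cd63, 0.88 for Pigr, -0.63 for Serpina12, -0.78 for Etnppl, -2.12 for Nat8, 1.65 for Ang, 0.56 for Supt16, 0.44 for Psmb5 and 1.01 for Extl1.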

How the results depend on the processing

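Of the 1997 genes called between double knockout and wild type, 1324 had an adjusted p under 0.01 (812 higher, 512 lower) and 231 changed at least 2-fold (158 higher, 73 lower). The same 2 thresholds gave 964 and 223 genes against FXR-/-, 1082 and 213 against SHP-/-, and 473 and 191 for the age difference. Leaving out each array in turn gave 1363 to 1635 genes against wild type, with 811 to 956 higher and 552 to 679 lower, 1056 to 1449 against FXR-/-, 1114 to 1646 against SHP-/- and 626 to 1647 for the age difference. Leaving out arrays of groups other than the compared double knockout and wild type was chosen after seeing the data. The other settings gave 1709 genes (detected on all 4 arrays) to 2636 (every probe by itself, of 10010 probes), 1914 with only the 4 compared arrays and 1976 with the authors' deposited log2 values. With median centring in place of quantile normalization 2187 genes were called, 1033 higher and 1154 lower, so 47.2% were higher against 57.1%, with a median over all genes of -0.044. Same-numbered arrays of wild type and double knockout did not deviate together (r = 0.014 across genes, which are not independent replicates), and the replicate block gave 1971 genes, 1533 against FXR-/-, 1740 against SHP-/- and 966 for the age difference, and changed no named call between double knockout and wild type.

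Of the 1997 called genes 2 had a difference of the opposite sign with median centring and 1 with no detection filter, whether or not it passed there. The differences of named genes that changed sign had not passed the test. With median centring Abcg5 was at -0.031, Hba-a1 at -0.19, Scd1 at -0.25, Cyp7a1 against FXR-/- at -0.036 and Ndrg2 in SHP-/- at -0.035. The age difference of Cyp17a1 was -0.21 with the authors' deposited values and -0.021 with an offset of 50. Over the arrays left out, Hba-a1 ranged from -0.044 to 0.13, Scd1 from -0.19 to 0.24, Abcb11 against FXR-/- from -0.24 to 0.063, Cyp8b1 against FXR-/- from -0.21 to 0.047, and in SHP-/- against wild type Sult2a2 from -0.20 to 0.18 and Tmem260 from -0.029 to 0.036. The cause was not tested. With 2 arrays in each group, differences near the background are limited by signal, and 286 genes were not detected in wild type and 73 not in the double knockout.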
